A study of Arabidopsis thaliana with 6 samples.

Results

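The genes described here are the Arabidopsis thaliana loci whose deposited description names the domain DUF26 or a cysteine-rich receptor-like kinase (CRK). The rule selected 52 of the 25964 loci with a read in any library. Of these, 38 are described as kinases and 14 as DUF26 proteins without a kinase. The genes were read in flower buds of the Columbia background, from wild-type plants (WT) and from atcep1 plants, which are mutated in the papain-like protease gene CEP1. Anther development divided the buds into classes: A for anther stages 5 and 6, B for stages 7 up to 9, and C for stages 10 and 11. Of the 6 libraries, 1 stands for each genotype in each class, and they hold 4013645 to 4375266 reads on the loci that were tested. Neither the mutant allele nor the number of plants behind a library is stated, and differences seen in 1 class alone are therefore unreplicated. CEP1 itself was at or near the limit of detection in every library (0 to 0.917 RPKM in WT and 0.628 to 0.883 RPKM in atcep1), so its level does not check the genotype labels. RPKM is the read count scaled by the length of the transcript model and by the library total.

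DUF26 is a small extracellular domain whose conserved cysteines form disulfide bridges. In the CRKs it sits outside the cell, followed by a membrane-spanning segment and a cytosolic serine/threonine kinase, and many CRK genes are known to respond to pathogens, salicylic acid and reactive oxygen species. Proteins with the domain and no kinase are predicted to be secreted or, as in the plasmodesmata-located proteins, anchored in the membrane; the best studied secreted one, ginkbilobin of Ginkgo seeds, is antifungal.

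The domain could be read directly from the coding sequences. The motif searched was a cysteine, any 8 residues, a cysteine, any 2 residues and a cysteine. All 52 members had at least 1 such motif in RefSeq's coding sequence (TAIR10.1), against 1.60% of 23829 loci with a coding sequence. A pair of motifs was found in 42 members, a single one in 8, and more than 2 in CRK17 and CRK23. Of the 4 in CRK17, 2 lie at the same positions as those of CRK16, whose RefSeq coding sequence overlaps that of CRK17. The stretches shown next are 39 coding bases long, with the 3 cysteine codons in capitals. They are given for a gene without a kinase that differed most between the genotypes (AT3G21990), for its near-copy on chromosome 4 (AT4G20670), and for the most abundant receptor kinase (CRK10).
AT3G21990, first motif, chr3:7749680-7749718, plus strand: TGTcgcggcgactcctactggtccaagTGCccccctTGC
AT4G20670, first motif, chr4:11092848-11092886, plus strand: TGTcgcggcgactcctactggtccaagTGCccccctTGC
CRK10, first motif, chr4:12138456-12138494, plus strand: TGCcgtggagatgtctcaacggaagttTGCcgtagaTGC
AT3G21990, second motif, chr3:7750267-7750305, plus strand: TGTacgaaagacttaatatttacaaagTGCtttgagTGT
AT4G20670, second motif, chr4:11093439-11093477, plus strand: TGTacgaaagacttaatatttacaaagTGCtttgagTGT
CRK10, second motif, chr4:12138795-12138833, plus strand: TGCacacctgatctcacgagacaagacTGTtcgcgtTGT
Both stretches of AT3G21990 and AT4G20670 are the same letter for letter, and CRK10 has the same cysteine spacing in a stretch that differs from them. The encoded proteins fell into separate length classes. Those with a kinase had 528 to 1043 residues (median 661) and those without had 174 to 300 (median 261).

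Likeness between members limits how firmly their reads can be assigned, since the authors counted uniquely mapped reads. For each member every stretch of 49 bases, the length covered by a single read, was looked up in the genome. In 21 members no stretch recurred exactly elsewhere, and in 9 more than 10% did. AT3G21990 had 33.6% of its stretches elsewhere, and 81.3% when 2 mismatches were allowed. AT4G20670 had 95.6%. AT3G22000 and AT4G20680, whose coding sequences are 99.1% identical, had 63.5% and 65.9%. AT3G21920 and AT3G21930 (92.0% identical) had 90.0% and 87.2%. Among the kinases, CRK6, CRK8 and CRK22 had 22.3%, 16.8% and 16.2%. Levels of these genes are uncertain. AT3G21910, AT3G21970, AT3G22050, AT3G29040, AT3G58310, CRK2, CRK3, CRK14 and CRK42 had no exact recurrence. CRK16 and CRK17 are separate neighbours in the files, but their RefSeq coding sequences overlap, with the shared motifs inside the files' CRK17 model, so reads counted for CRK17 may belong to either.

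Most members lie in clusters of their own kind. When members within 20 kb of each other were joined, 42 of the 52 fell into 7 runs. The longest holds 18 kinases, CRK5 to CRK24, on chromosome 4 from 12117598 to 12191977 (TAIR10). The next holds 10 genes without a kinase, AT3G21910 to AT3G22057, on chromosome 3 from 7717372 to 7770261. CRK36 to CRK39 and CRK30 to CRK34 form runs of 4 on chromosome 4, and CRK2 with CRK3, CRK28 with CRK29 and AT4G20670 with AT4G20680 form pairs.

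As a group the genes were read at low levels. The median over members of the mean RPKM of the 6 libraries was 0.991, against 4.85 over all loci. A mean of at least 1 RPKM was reached by 26 members and of at least 10 by 8, and 27 had a read in all 6 libraries. No library gave more than 3 reads for 13 members, 12 of them kinases. Of the 18 members in the CRK5 to CRK24 run, 9 stayed below 1 RPKM in every library, while the same run holds CRK10, at 12.9 to 48.0 RPKM.

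The summed reads of each class separated the genotypes at every stage. The 38 kinases together took 198, 212 and 187 RPM (reads scaled to a library of 1000000) in WT, stages A, B and C in turn, against 388, 320 and 284 RPM in atcep1. The 14 genes without a kinase took 3.22, 20.2 and 53.2 RPM in WT and 20.8, 162 and 291 RPM in atcep1. Without AT3G21990 the latter sums were 3.22, 18.8 and 50.9 in WT and 15.7, 118 and 206 in atcep1. The kinase sum was nearly level over the stages in WT and lower from stage to stage in atcep1, and the sum without a kinase was higher at each later stage in both genotypes. In bulk RNA, more cells that express a gene and more RNA per cell cannot be told apart.

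**Figure D1:**
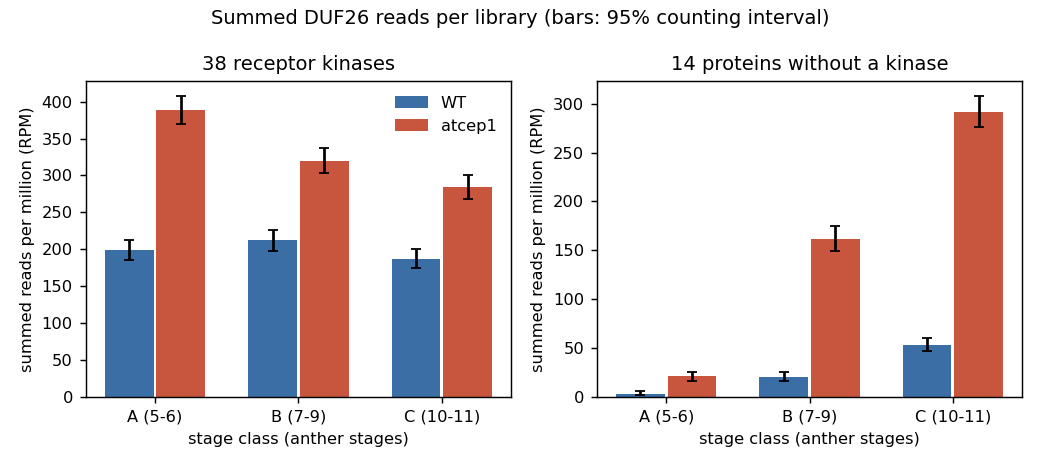
Summed RPM (vertical axis) of the 38 kinases (left) and the 14 members without a kinase (right), by stage class and genotype, 1 library per bar. Error bars are exact 95% binomial intervals of the share of the library total and cover counting error only. In both panels the atcep1 bar stands above the WT bar of its stage, from 198 against 388 at stage A for the kinases to 53.2 against 291 at stage C for the others.

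The genotype difference was tested with edgeR's quasi-likelihood test in a model that adds a genotype term to the stages. The spread is how much the difference varies among the 3 stages, drawn for each locus toward the trend over all loci tested. A small adjusted p therefore does not rest on a gene's own consistency over the stages alone. Of the 52 members, 20 passed the filter on low counts, and 13 of these were higher in atcep1 at a Benjamini-Hochberg adjusted p below 0.05. The background was 16% of the 16114 loci tested called higher and 11.5% called lower. No member was called lower by edgeR, 1 (CRK28) had an unadjusted p below 0.05 in that direction, and DESeq2 and limma also called none. The median log2 fold change of the 20 tested members was 1.03, against -0.00 over all loci tested. Because a gene can pass the filter through the genotype where it is high, all 52 members were also counted without it. The mean RPKM was higher in atcep1 for 43 members and lower for 9, all 9 kinases, while 48.8% of all loci were higher. This count includes 13 members with at most 3 reads in every library, whose direction rests on few reads. Near-copies are counted as separate members. At all 3 stages 21 members were higher in atcep1 and 3 were lower, against 20.9% and 25.3% of all loci.

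**Figure D2:**
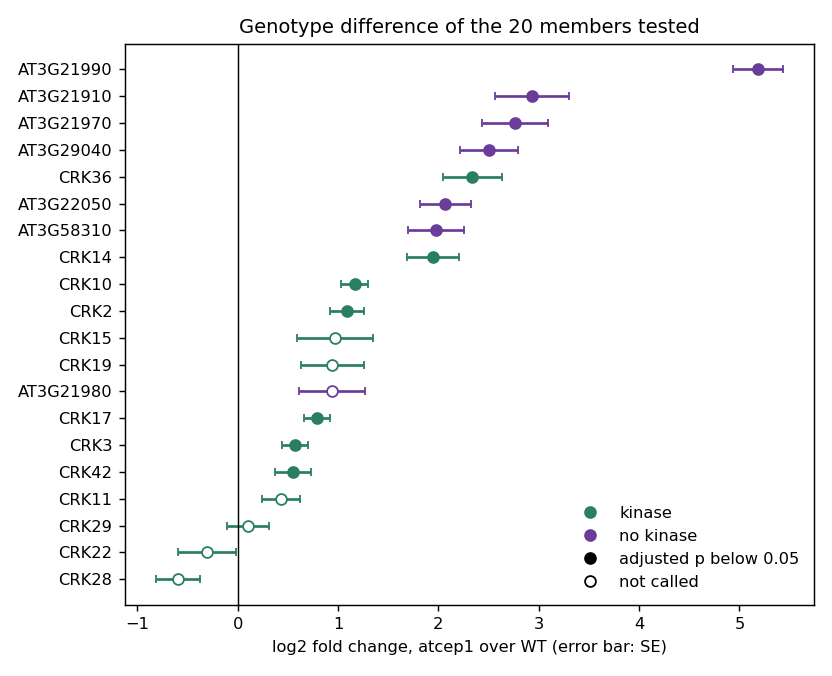
Log2 fold change of atcep1 over WT (horizontal axis) with its SE from edgeR for the 20 members tested, with filled points for an adjusted p below 0.05. The members without a kinase (purple) lie between 0.94 and 5.18, and the kinases (green) between -0.59 and 2.34.

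Among the receptor kinases, 7 of 13 tested were higher in atcep1. CRK10, of which a gain-of-function mutant is known to be dwarfed, was the most abundant. In WT its RPKM was 20.9 at stage A, 21.3 at B and 12.9 at C, and in atcep1 it was 48.0, 37.6 and 32.7. Every atcep1 library stood above every WT library, and the log2 fold change was 1.17 (SE 0.13, edgeR adjusted p = 0.000570). CRK2, which is known to phosphorylate the NADPH oxidase RBOHD, was read at 6.55, 7.34 and 6.55 RPKM in WT and 16.3, 11.7 and 14.0 RPKM in atcep1. These groups did not overlap either, with a log2 fold change of 1.09 (SE 0.17, edgeR adjusted p = 0.00264). Its neighbour CRK3 was read at 12.6, 15.1 and 13.9 RPKM in WT and 21.2, 20.8 and 17.9 RPKM in atcep1, with a log2 fold change of 0.57 (SE 0.13, edgeR adjusted p = 0.0128). That call was lost with DESeq2 (adjusted p = 0.0726) and without stage A (adjusted p = 0.0993).

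CRK36 and CRK14, read at lower levels, had the largest fold changes among the kinases called. CRK36, known to interact with the immune kinase BIK1, was read at 0.877, 1.23 and 0.834 RPKM in WT and at 5.87, 5.10 and 3.67 RPKM in atcep1. The lowest atcep1 value was above the highest WT value, and the log2 fold change was 2.34 (SE 0.29, edgeR adjusted p = 0.000906). CRK14 was read at 2.45, 2.21 and 0.811 RPKM in WT and at 9.37, 6.21 and 4.69 RPKM in atcep1, again with no overlap. Its log2 fold change was 1.95 (SE 0.26, edgeR adjusted p = 0.00124). CRK17 was nearly level over the stages in both genotypes, at 7.25 to 7.57 RPKM in WT and 11.8 to 13.6 RPKM in atcep1, with a log2 fold change of 0.79 (SE 0.13, edgeR adjusted p = 0.00322). CRK42 was read at 5.07, 7.88 and 6.16 RPKM in WT and 8.11, 8.95 and 9.74 RPKM in atcep1. Its log2 fold change of 0.55 (SE 0.18) lay near the threshold (edgeR adjusted p = 0.0483), and its call was lost under 6 alternatives, among them DESeq2 (adjusted p = 0.220).

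**Figure D3:**
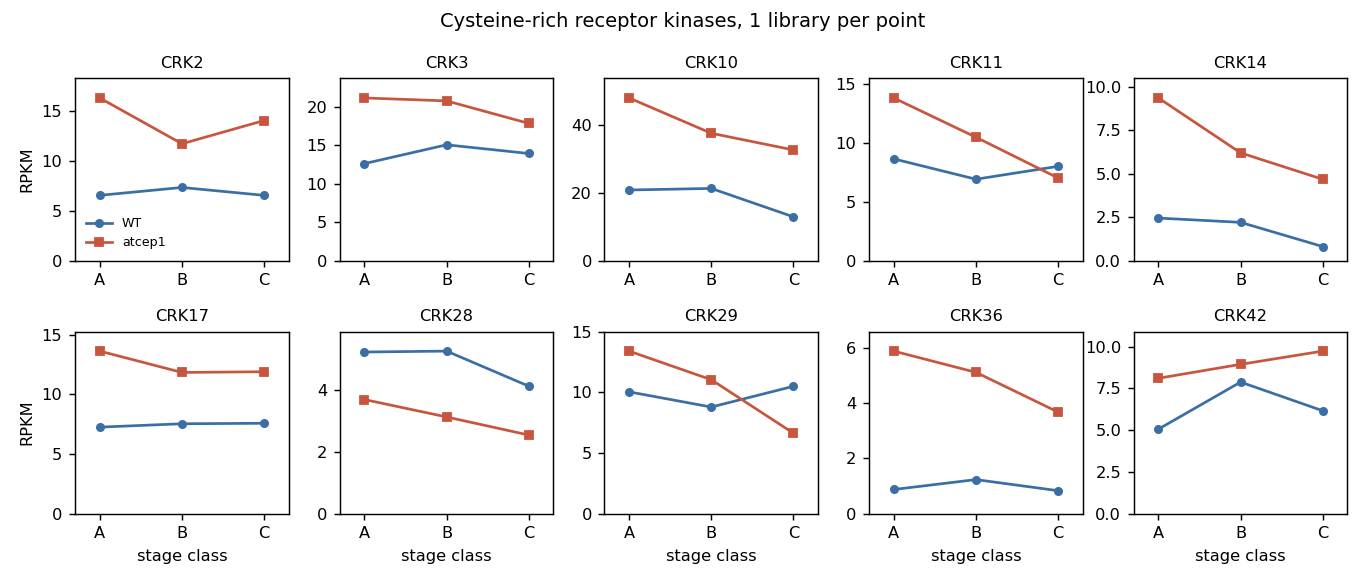
RPKM (vertical axes, each from 0) of 10 receptor kinases by stage class, 1 library per point, WT as blue circles and atcep1 as red squares. CRK10 lies between 32.7 and 48.0 RPKM in atcep1 and between 12.9 and 21.3 RPKM in WT, whereas the lines of CRK11 and CRK29 cross before stage C and CRK28 lies lower in atcep1.

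Not all kinases moved this way. CRK28, known to associate with the flagellin receptor complex, was read at 5.24, 5.27 and 4.13 RPKM in WT and at 3.70, 3.13 and 2.55 RPKM in atcep1. All 3 atcep1 libraries were below all 3 WT libraries, and the log2 fold change of -0.59 (SE 0.22) was not called (edgeR adjusted p = 0.0748). CRK29, its neighbour at 85.0% coding identity, was read at 10.0, 8.79 and 10.5 RPKM in WT and 13.4, 11.0 and 6.64 RPKM in atcep1, with a log2 fold change of 0.10 (SE 0.21, edgeR adjusted p = 0.744) whose sign turned without stage A or without stage B (-0.09 and -0.03). CRK11, next to CRK10, was read at 8.64, 6.92 and 8.01 RPKM in WT and at 13.8, 10.5 and 7.02 RPKM in atcep1 (log2 fold change 0.43, SE 0.19, edgeR adjusted p = 0.121). Without stage C its fold change was 0.65 and was called (adjusted p = 0.0146). CRK15 (0.97, SE 0.38), CRK19 (0.94, SE 0.32) and CRK22 (-0.30, SE 0.29) were not called, with edgeR adjusted p of 0.0907, 0.0561 and 0.462. CRK15 was called without stage C (log2 fold change 1.23, adjusted p = 0.0415).

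Not all members next to a called kinase had more reads in atcep1. In the long run on chromosome 4, 7 of 18 members were tested and 3 were higher (CRK10, CRK14 and CRK17), with 1232 reads in the 3 WT libraries and 2360 in the 3 atcep1 libraries over the whole run. CRK8, between CRK7 and CRK10, had 2, 5 and 7 reads in WT and 14, 9 and 6 in atcep1. AT4G23170, a neighbour of CRK10 in the run that the rule did not select and that is described as related to receptor kinases, had 30, 43 and 33 reads in WT and 91, 69 and 84 in atcep1. CRK12 and CRK18 had at most 2 reads in any library, and CRK16 had 9, 10 and 10 reads in WT and 7, 8 and 10 in atcep1. CRK7 had 0, 1 and 1 reads in WT and 12, 13 and 6 in atcep1, which at stage A is at least 3.90-fold higher against a floor of 3 reads in the WT library. Of the CRK36 to CRK39 run, CRK37 had 3, 2 and 1 reads in WT and 20, 11 and 4 in atcep1. The run of CRK30 to CRK34 had 36 reads in WT and 39 in atcep1, and no member of it was tested.

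All 14 members without a kinase had a higher mean RPKM in atcep1, and 6 of the 7 tested were called higher. AT3G21990 (chr3:7749247-7750419, TAIR10, plus strand) had 0, 6 and 10 reads in the WT libraries, in stage order, and 21, 181 and 379 reads in those of atcep1. In RPKM these are 0, 1.56 and 2.51 against 5.42, 46.4 and 91.7. Even the lowest atcep1 library was above all of WT, and at stage A the atcep1 value was at least 6.83-fold higher against a floor of 3 reads. The log2 fold change was 5.18 (SE 0.25, edgeR adjusted p = 1.99e-05), with 33.6% of the gene's stretches recurring elsewhere. The near-copy AT4G20670 had 3 reads in WT and 4 in atcep1 over all stages, and with 95.6% of its stretches elsewhere few of its reads could be unique.

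AT3G21970, in the same run, had the highest value of any member in a single library, in atcep1 at stage C. It was read at 0.270, 2.93 and 25.7 RPKM in WT and at 4.22, 52.2 and 105 RPKM in atcep1, a log2 fold change of 2.77 (SE 0.33, edgeR adjusted p = 0.000718). The genotypes overlapped only across stages, since WT at stage C was above atcep1 at stage A. AT3G29040 lies outside the run, at chr3:11037461-11038440, and is nearest to AT3G21970 in coding sequence (79.5% identity). Its level was also higher at each later stage and in atcep1 at every stage, with 0.645, 2.22 and 10.4 RPKM in WT and 2.20, 21.3 and 46.0 RPKM in atcep1 (log2 fold change 2.51, SE 0.29, edgeR adjusted p = 0.000631). AT3G22050 was read at 0.319, 4.71 and 9.09 RPKM in WT and 2.18, 18.9 and 35.0 RPKM in atcep1, with a log2 fold change of 2.07 (SE 0.25, edgeR adjusted p = 0.000794). AT3G21910 was lower, at 0.296, 1.17 and 1.41 RPKM in WT and 3.47, 7.46 and 10.6 RPKM in atcep1. Its groups did not overlap, and its log2 fold change was 2.93 (SE 0.37, edgeR adjusted p = 0.000931). AT3G58310, elsewhere on chromosome 3, was read at 0.638, 4.39 and 4.85 RPKM in WT and 3.11, 16.4 and 17.8 RPKM in atcep1, with a log2 fold change of 1.98 (SE 0.28, edgeR adjusted p = 0.00152).

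**Figure D4:**
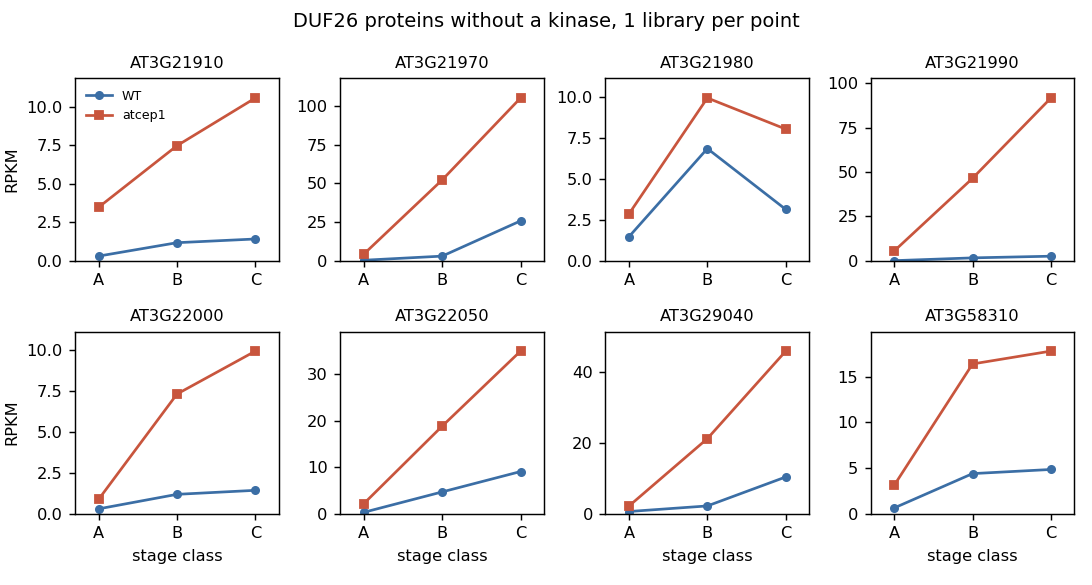
RPKM (vertical axes, each from 0) of 8 members without a kinase by stage class, 1 library per point, WT as blue circles and atcep1 as red squares. The atcep1 line lies above the WT line at each stage in all 8 panels, and AT3G21970 reaches 105 RPKM in atcep1 at stage C against 25.7 in WT.

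The remaining genes of the chromosome 3 run were not called or not tested. AT3G21980 was tested but not called (log2 fold change 0.94, SE 0.33, edgeR adjusted p = 0.0644), at 1.46, 6.83 and 3.13 RPKM in WT and 2.85, 9.92 and 8.02 RPKM in atcep1. AT3G22000 had 1, 4 and 5 reads in WT and 3, 25 and 36 in atcep1, and its near-copy AT4G20680 had none in WT and 1, 8 and 11 in atcep1. AT3G22040 had 0, 0 and 2 reads in WT and 1, 10 and 17 in atcep1. AT3G22057 had 0, 2 and 2 reads in WT and 0, 6 and 4 in atcep1. AT3G21920 had at most 2 reads in any library, and AT3G21930 had 10 reads in WT and 14 in atcep1. Over the whole run 244 reads were counted in WT and 1666 in atcep1. Loci inside the run that the rule did not select showed the same order at stages B and C where they are described as related to receptor kinases: AT3G21940 had 1, 4 and 8 reads in WT and 4, 10 and 24 in atcep1, and AT3G22020 had 0, 2 and 2 in WT and 2, 12 and 18 in atcep1. The methyltransferase gene AT3G21950, within the same run, had 16, 7 and 1 reads in WT and 18, 10 and 0 in atcep1.

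**Figure D5:**
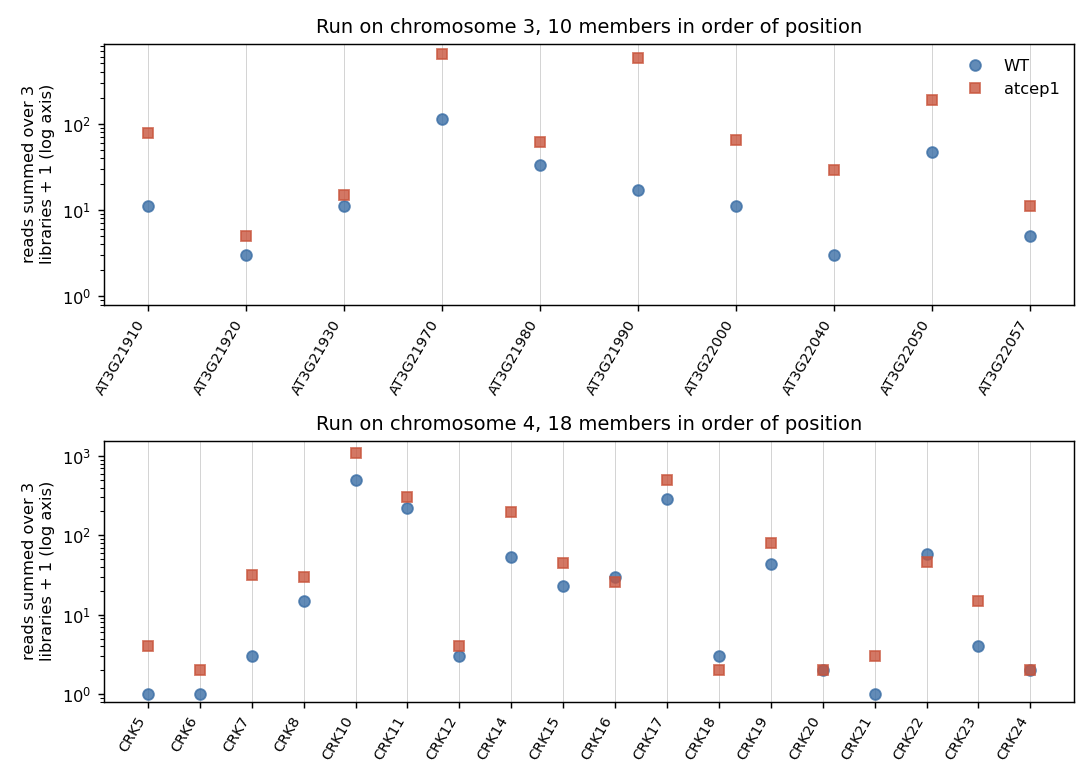
Reads summed over the 3 libraries of a genotype plus 1 (vertical log axis) for the members of the chromosome 3 run (upper panel, 10 genes without a kinase) and of the long chromosome 4 run (lower panel, 18 kinases) in order of position, without the loci between them. All 10 upper genes have more reads in atcep1, from 244 against 1666 over the run, whereas in the lower run CRK16, CRK18 and CRK22 have fewer.

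Most changes called from stage to stage were in members without a kinase. From stage A to stage B, 7 members rose and none fell at an edgeR adjusted p below 0.05, where 4.36% of loci rose and 0.484% fell. Unadjusted, 1 member (CRK15) was below 0.05 in the falling direction, and DESeq2 and limma called no fall. Of the 7 tested members without a kinase 6 rose: AT3G21970 by 3.53 (SE 0.53), AT3G22050 by 3.26 (SE 0.41), AT3G21990 by 3.21 (SE 0.31), AT3G29040 by 2.99 (SE 0.46), AT3G58310 by 2.51 (SE 0.39) and AT3G21980 by 2.01 (SE 0.43), all as log2 fold changes. The kinase that rose was CRK22, by 2.24 (SE 0.41), with 5, 26 and 26 reads in WT and 5, 21 and 19 in atcep1. Of its stretches of 49 bases, 16.2% recurred exactly elsewhere. The adjusted p of these 7 ranged from 0.000801 to 0.0349 by edgeR. Without the atcep1 library of stage A none of the 7 was called, although every one kept its direction. From stage B to stage C, AT3G21970 rose by 1.61 (SE 0.33), AT3G29040 by 1.45 (SE 0.29) and AT3G21990 by 1.03 (SE 0.22), with edgeR adjusted p of 0.0230, 0.0210 and 0.0259. No member was called lower, 1 (CRK10, -0.38) had an unadjusted p below 0.05, and DESeq2 and limma called no fall. The background was 4.28% of loci rising and 2.36% falling. DESeq2 called 1 of the 3 rises and limma none. Both steps share the stage B libraries. Each step is a single value fitted for both genotypes, although their levels moved unequally. From B to C, AT3G21970 went from 2.93 to 25.7 RPKM in WT and from 52.2 to 105 RPKM in atcep1. AT3G29040 went from 2.22 to 10.4 RPKM in WT and from 21.3 to 46.0 RPKM in atcep1. AT3G21990 went from 1.56 to 2.51 RPKM in WT and from 46.4 to 91.7 RPKM in atcep1. Whether a step differs between genotypes was not tested.

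Within single stages the differences had no replicate check and were described by log2((atcep1 RPKM + 1)/(WT RPKM + 1)) among genes whose higher RPKM was at least 5. At stage A, 11 members met this minimum and 5 were at least 2-fold higher in atcep1 (AT3G21990, CRK36, CRK14, CRK2 and CRK10), against 6.23% of all loci. None was at least 2-fold lower, against 3.25%. At stage B, 9 of 18 were higher (6.64% of loci) and none lower (4% of loci). At stage C, 9 of 15 were higher (8.15% of loci) and none lower (3.89% of loci). The medians were 0.82, 0.98 and 1.27 for the members and -0.03, -0.03 and -0.11 for all loci. Among the kinases that met the minimum, 4 of 10 were 2-fold higher at stage A, 2 of 10 at stage B and 1 of 7 (CRK10) at stage C. Among those without a kinase it was 1 of 1, 7 of 8 and 8 of 8. The minimum applies to the higher of the 2 values, so a member low in WT met it only through atcep1 and had to differ (AT3G21990 at stage A, at 0 against 5.42 RPKM), and these shares are no support for a difference. Among members with a WT read, the largest ratio in reads per library total was that of AT3G21990 at stage C, 36.5 (exact conditional 95% binomial interval 19.6 to 76.7, counting error only).

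Genes that act beside the CRKs were read in the same libraries, as lists chosen by pathway. The lists were chosen with earlier results of these data known, so their shares against the background are descriptions and not independent support. Of 10 genes for pattern receptors and the oxidative burst, 9 were tested, 6 were higher in atcep1 by edgeR and none lower. SOBIR1, a co-receptor of receptor-like proteins, was read at 22.2, 16.9 and 11.0 RPKM in WT and 62.4, 39.1 and 36.7 RPKM in atcep1 (log2 fold change 1.53, SE 0.13). RBOHD, the oxidase on which CRK2 acts, was read at 21.4, 19.0 and 20.2 RPKM in WT and 46.2, 40.3 and 44.6 RPKM in atcep1 (log2 fold change 1.17, SE 0.09). RBOHF (1.06, SE 0.18) and the flagellin receptor FLS2 (0.96, SE 0.15) were also higher. Of 12 genes of salicylic acid defence, 9 were tested and 4 were higher: the glucanase gene PR2 (2.25, SE 0.38), PR5 (1.96, SE 0.30), PBS3 (1.15, SE 0.24), which acts in salicylic acid synthesis, and its receptor NPR1 (0.48, SE 0.14). The classical marker PR1 was listed in WT at stage C, at 0.310 RPKM, and in no other library. ICS1 and EDS5 of the same list were lower in atcep1 at each stage. ICS1 was read at 1.08, 0.593 and 1.03 RPKM in WT and 0.941, 0.584 and 0.220 RPKM in atcep1, and was not tested. EDS5 was not called (-0.19, SE 0.26). Of 9 defence WRKY transcription factors, 8 were tested and 4 were higher: WRKY6 (1.80, SE 0.36), WRKY54 (0.87, SE 0.26), WRKY33 (0.57, SE 0.10) and WRKY70 (0.50, SE 0.11). No gene of these lists was called lower between genotypes. The medians of the tested genes were 0.81 for the pattern receptors and oxidative burst, 0.48 for salicylic acid defence and 0.52 for the WRKY factors, against -0.00 over all loci, where 16% were called higher and 11.5% lower.

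The plasmodesmata-located proteins carry the same domain. Of their 8 genes 5 were tested between the genotypes and none was called by edgeR, DESeq2 or limma, with 2, 0 and 3 of them at an unadjusted p below 0.05. Their median log2 fold change was -0.26, and PDLP5 rose from stage A to stage B (1.72, SE 0.29, edgeR adjusted p = 0.0122). Of 13 receptor kinases of anther and pollen, 12 were tested. ANX1, which keeps pollen tubes intact, was higher in atcep1 (0.80, SE 0.23), and the tapetum receptor EMS1 (-0.52, SE 0.09) and its co-receptor SERK2 (-0.29, SE 0.09) were lower. From stage A to stage B 6 of these 12 rose, the largest being PRK3 (7.01, SE 1.42, with no read at stage A in either genotype), ANX2 (6.61, SE 0.95) and PRK2 (4.25, SE 0.53).

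Marker genes of anther cell types moved with the genotypes as well. Of 8 tapetum markers, all 8 were tested and higher in atcep1 by edgeR. Their summed level was 13.0 to 409 RPKM in the WT libraries and 222 to 1489 RPKM in the atcep1 libraries, falling from stage A to stage C in both, and none was at 0. Of 7 pollen markers 5 were tested and all 5 were higher in atcep1. They summed to 14.3, 307 and 767 RPKM in WT and 105, 659 and 1605 RPKM in atcep1, in stage order, with AGL66 at 0 in WT at stage A and MYB125 at 0 in WT at stage C. The pollen sum and the sum of the members without a kinase were thus higher at each later stage and higher in atcep1 at every stage. Most of the pollen sum was VGD1, at 8.83, 278 and 719 RPKM in WT and 70.1, 477 and 1253 RPKM in atcep1. All 5 tested pollen markers had this order singly. GCS1 and MYB125, which were not tested, were lower in atcep1 at stage A (0.645 against 0.992 and 0.541 against 0.831 RPKM). MYB125 also fell over the stages in WT. Meiocyte markers summed to 22.4 to 53.5 RPKM in WT and 11.9 to 28.2 RPKM in atcep1, with 2 of 3 tested lower in atcep1. Carpel and ovule markers summed to 218 to 394 RPKM in WT and 193 to 264 RPKM in atcep1, with 2 of 6 tested lower. Green tissue markers summed to 2490 to 5408 RPKM in WT and 2837 to 3234 RPKM in atcep1, with 1 of 5 tested lower. Of the 5 floral genes that check the bud label, AP1, AP3 and PI were read at 145 to 318 RPKM and AG and SEP3 at 3.02 to 12.4 RPKM over the libraries, and AP1 (0.66, SE 0.09) and AG (1.30, SE 0.27) were higher in atcep1 by edgeR. The part of these cell types in the members' differences was not tested.

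Upstream sequence was compared because WRKY factors bind the W-box, whose core is TTGAC. Windows of 250 bases before RefSeq's gene start (TAIR10.1) were searched for TTGAC on both strands, so that GTCAA is the same core on the other strand. At least 1 core was found in 29 of 38 kinases (76.3%) and 9 of 14 members without a kinase (64.3%), against 44.7% of 23828 loci. At least 2 were found in 16 kinases (42.1%) and 2 members without a kinase (14.3%), against 14.1% of loci. The share without a kinase was thus near that of all loci. Of the 13 members called higher in atcep1, 10 had a core, which is near the share of all members (38 of 52, 73.1%). Among tested members that were not called, 3 of 6 kinases and 0 of 1 without a kinase had a core. CRK11, which was not called, had 6, the most of any member. The windows of CRK10, CRK11, AT3G21970, AT3G29040 and AT3G21990 are shown, with the core in capitals, since they cover the most abundant kinase, the kinase with the most cores and the 3 genes that rose at both steps.
CRK10, chr4:12137745-12137994, plus strand: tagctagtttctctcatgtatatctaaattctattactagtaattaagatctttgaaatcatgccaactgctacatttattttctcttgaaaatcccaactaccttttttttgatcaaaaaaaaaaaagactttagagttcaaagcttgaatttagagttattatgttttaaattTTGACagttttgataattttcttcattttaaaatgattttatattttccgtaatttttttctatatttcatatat
CRK11, chr4:12143859-12144108, minus strand: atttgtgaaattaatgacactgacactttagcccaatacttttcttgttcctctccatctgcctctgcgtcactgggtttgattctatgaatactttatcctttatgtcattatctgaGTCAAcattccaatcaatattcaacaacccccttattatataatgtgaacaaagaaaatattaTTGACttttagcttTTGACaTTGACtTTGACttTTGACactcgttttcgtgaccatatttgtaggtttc
AT3G21970, chr3:7742000-7742249, plus strand: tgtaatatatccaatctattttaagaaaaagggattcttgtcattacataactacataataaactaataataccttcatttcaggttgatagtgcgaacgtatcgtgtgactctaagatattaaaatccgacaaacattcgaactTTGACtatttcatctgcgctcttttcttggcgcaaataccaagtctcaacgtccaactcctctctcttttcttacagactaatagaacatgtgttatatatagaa
AT3G29040, chr3:11037051-11037300, plus strand: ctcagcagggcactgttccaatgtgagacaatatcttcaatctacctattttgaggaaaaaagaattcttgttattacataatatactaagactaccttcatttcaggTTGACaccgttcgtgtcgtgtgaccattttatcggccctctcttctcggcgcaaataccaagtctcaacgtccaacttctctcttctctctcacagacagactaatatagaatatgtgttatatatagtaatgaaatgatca
AT3G21990, chr3:7748997-7749246, plus strand: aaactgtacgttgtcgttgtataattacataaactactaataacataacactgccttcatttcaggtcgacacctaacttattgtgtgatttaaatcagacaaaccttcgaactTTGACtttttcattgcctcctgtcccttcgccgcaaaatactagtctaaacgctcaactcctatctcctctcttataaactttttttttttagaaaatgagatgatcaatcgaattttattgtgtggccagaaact
In CRK11, 5 of the 6 cores begin 36 to 69 bases before the gene start. AT3G21970 and AT3G29040, which lie far apart on chromosome 3, share a stretch of 30 bases in their windows, the longest among the 6 called members without a kinase, where other pairs shared 8 to 14:
Shared by AT3G21970 and AT3G29040: ggcgcaaataccaagtctcaacgtccaact
A match of these letters is a description of the window and not evidence of binding.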

How the data were processed

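Messenger RNA of flower buds was enriched on oligo(dT) beads and read on an Illumina HiSeq without a step that marks strand, per the labels' protocols. Per the file headers, the deposited tables give each transcript model's length, RPKM, percent covered and count of reads that map to a single place. The genome build is TAIR10, per the submitters' processing notes. How the reads were aligned and counted is not given in the sources used here. The authors' deposited counts and RPKM were summed per locus (30088 models, 25964 loci), and a model without a listed read was set to 0. The deposited percent covered was used only to check the files. The library totals limit precision: 3 reads were taken as the floor, and PCR copies of a molecule are counted apart, so that intervals and floors reflect counting alone.

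The members and the gene lists were chosen with earlier results of these data known. Genotype (stage and genotype as additive terms) and the stage steps were tested in 1 fit with edgeR 4.0.16 (R 4.3.3; TMM factors, filterByExpr, quasi-likelihood F test) over 16114 loci, with 2 residual degrees of freedom and Benjamini-Hochberg adjustment over all of them. The test draws the spread of each locus toward a trend over all loci, so it borrows from other genes. SEs are the log2 fold change over the square root of F and share this spread. Nothing says that libraries came from separate plants, so p-values measure the spread between these libraries, which may be technical. On counts simulated for the genotype comparison the fit called 38 of 50 genes raised by 1 on the log2 scale, 50 of 50 raised by 2 and 3 of 15667 unchanged genes. The simulated counts had the same dispersion for every gene and no differences between stages. These shares are therefore not the error rates or the power in the 6 libraries. Single libraries were compared within each stage, with a pseudocount of 1 RPKM and no test. The members named are the called ones with the largest changes, the 8 of highest mean RPKM, the largest and smallest ratios per stage, and neighbours of called members in a run; CRK7, CRK19 and others outside that rule were chosen after their values were seen. Alternatives were DESeq2 1.42.0, limma 3.58.1 on log2(RPKM + 1), no filter on low counts, totals without TMM factors, the model with the most reads, each stage or library left out, other pseudocounts and other minimum RPKM.

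Sequences come from RefSeq's TAIR10.1 genome and annotation, in which all 52 members were found; 29856 of the 29866 listed models on nuclear chromosomes overlapped their gene there. Windows of 49 bases were aligned with bwa 0.7.19.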

Additional observations from a re-analysis of the deposited data

Results flagged for a closer look

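CRK29 went opposite ways at different stages. At stage A its ratio of reads per library total, atcep1 over WT, was 1.33 (exact conditional 95% binomial interval 1.01 to 1.77), with 90 reads in WT and 123 in atcep1. At stage C the ratio was 0.632 (0.455 to 0.873), with 99 and 65 reads, and at stage B it was 1.26 (0.928 to 1.70). The intervals cover counting error only, and with 1 library per genotype and stage the difference between the stages was not tested.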

How the results depend on the processing

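The 13 members called higher in atcep1 were 11 to 17 under the alternatives and 13 to 16 with 1 stage left out, with 0 called lower throughout, and the median log2 fold change of 1.03 ranged from 0.84 to 1.17. From stage A to stage B the 7 rises were 5 to 8 under other tools, scalings and filters and 0 to 8 with 1 library left out, the 0 without the atcep1 library of stage A. From stage B to stage C the 3 rises were 1 with DESeq2, 0 with limma on log2(RPKM + 1) and 2 to 3 with 1 library left out. The 5 members at least 2-fold higher at stage A were 2 with a pseudocount of 5 RPKM and 12 with a minimum of 1 RPKM or none. The 9 at stage C were 14 with a minimum of 1 RPKM or none and 12 with RPKM divided by TMM factors. CRK29 (0.10) ranged from -0.09 without stage A to 0.39 without stage C, and was -0.03 without stage B. For single members, cases were counted as 1 member under 1 alternative, so a member can count more than once. Members outside the naming rule, such as CRK19, and members that did not pass the filter were left out of these cases. A call was lost in 8 genotype cases and 20 step cases, and gained in 3 genotype cases. The cause of these changes was not tested. The stage term of the fit already pairs atcep1 with WT within a stage, and each genotype and stage has 1 library, so no further replicate pairing exists. Depth limits the 32 members that did not pass the filter, which had 180 reads in WT and 423 in atcep1 in all.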
